A study of Mus musculus with 8 samples.

Results

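RXR and Nur77 binding was compared within 1 cell state, the pluripotent mouse embryonic stem cell (ESC) kept in leukemia inhibitory factor (LIF). Each peak of the RXR list and each peak of the Nur77 list was called shared when it overlapped a peak of the other list by at least 1 bp, and RXR only or Nur77 only when it did not. The comparison held 30586 RXR peaks and 22651 Nur77 peaks, together 53237 of the 176687 peaks in the 8 libraries of the series. Of the RXR peaks, 8764 were shared and 21822 were RXR only. Of the Nur77 peaks, 8726 were shared and 13925 were Nur77 only. The counts of shared peaks differ between the lists because 112 RXR peaks overlapped more than 1 Nur77 peak and 151 Nur77 peaks overlapped more than 1 RXR peak.

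The study mapped the chromatin binding of RXR, Nur77, the nuclear form of FGFR1 and the histone variant H3.3 by chromatin immunoprecipitation and sequencing (ChIP-seq). The cells were E14Tg2a, an established mouse ESC line, at passages 37 to 40. The LIF group was kept undifferentiated with LIF and received no retinoic acid (RA). The other group, neuronal cells (NCs), received 1 µM RA for 48 h without LIF, and its peaks appear below only as a set of places against which the LIF peaks were read. RXR was precipitated with antibody SC-774, which the sample title assigns to RXRα, and Nur77 with antibody SC-5569. Cells of several plates were pooled for a precipitation. Each factor in LIF was 1 library, so no difference between them has a replicate check and no test across replicates was possible. A peak list holds no RNA level, so the identity of the cells could not be checked against marker genes, and an antibody's specificity could not be read from it. No input or control library was named for the peak calls.

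The retinoid X receptors (RXRs) are nuclear receptors that pair with other nuclear receptors, among them the retinoic acid receptors (RARs), the LXRs, the PPARs and Nur77 and its relative Nurr1. Such pairs bind repeats of the core word AGGTCA, and the spacing between the repeats differs between partners. Nur77, the product of Nr4a1, is an orphan receptor of the NR4A family and an immediate early gene product, transcribed within minutes of many stimuli. As a monomer it binds AAAGGTCA, named the NGFI-B response element (NBRE). In stem cells RXR is best known as the partner through which RA acts on RAR target genes.

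The DNA under the summits, the base of each peak with the most fragments, is shown first for a few peaks, to show the kinds of letters that were counted. All positions are mm10 (GRCm38), and all letters are those of the + strand. In the first set, the windows of 100 bases lie at summits outside promoters, and capitals mark AGGTCA or runs of at least 20 strictly alternating purines and pyrimidines, called tracts below. The shared peak of chromosome 15 is shown as a strong peak without a tract, and the strongest Nur77 only peak outside promoters, on chromosome 12, as one with tracts. Neither stands for its class: most shared peaks outside promoters held a tract, the strongest of them in an intron of Cntnap4 included, and most Nur77 only peaks did not. The AGGTCA of the chromosome 15 window is not typical either. Of shared RXR windows outside promoters 2.41% held it, against 5.69% of windows 400 bp to either side.
Shared, chromosome 15, chr15:75086850-75086949: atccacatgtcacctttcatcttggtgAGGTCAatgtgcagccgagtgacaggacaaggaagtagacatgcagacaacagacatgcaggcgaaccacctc
Nur77 only, chromosome 12, chr12:63848394-63848493: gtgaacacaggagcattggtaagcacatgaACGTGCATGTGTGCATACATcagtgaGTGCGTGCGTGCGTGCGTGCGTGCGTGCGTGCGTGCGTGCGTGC

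In the second set, capitals mark a word at a promoter summit. TGACGTCA is the cyclic AMP response element (CRE) and the repeats of AGGTCA-like words are named DR with the number of bases between the words. The first 3 sites are CREs at shared promoter peaks, the next is a CRE at a Nur77 only peak, the following 4 are direct repeats at RXR only peaks, and the last 2 are NBREs at a shared and at a Nur77 only peak. By the annotation, the Smyd5 site is in an untranslated exon, the Aldh1a3 site in a coding exon, the Lrrc46 and Mrpl10 site in an intron of Mrpl10, the Isca1 site in an intron of a neighbouring gene, and the others in no gene, upstream of the named one. These sites were chosen after their values were seen.
Prmt9, shared, CRE, chr8:77549342-77549371: gctccctggtgTGACGTCAtcacagcgctt
Psmb2, shared, CRE, chr4:126677596-126677625: ctcgcgagaggTGACGTCAttgggccgcgc
Pak1, shared, CRE, chr7:97788348-97788377: tcaagtgctgaTGACGTCAtcccggcgccc
Rpl26, Nur77 only, CRE, chr11:68901421-68901450: cctccgagggaTGACGTCAggacccctcgc
Smyd5, RXR only, DR1, chr6:85431963-85431991: ccgggacgGGGTCAAGGGTCAgaaggcag
Isca1, RXR only, DR1, chr13:59769903-59769931: aagggaggTGACCTGTGACCTtgcgggct
Slc6a16, RXR only, DR0, chr7:45241039-45241068: ggagtcgcgAGGTCAAGGTCAccgtgcccc
Aldh1a3, RXR only, DR0, chr7:66427310-66427339: tcaccttggTGAACTTGACCTccaagttgc
Guf1, shared, NBRE, chr5:69556878-69556907: tctcccatcccTGACCTTTcgacccccgcg
Lrrc46 and Mrpl10, Nur77 only, NBRE, chr11:97041713-97041742: tcctttccttcTGACCTTTcccgtaatctc

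The shared percentage differed between the lists and between places. Of all RXR peaks, 28.7% were shared (95% exact interval 28.1 to 29.2), and of all Nur77 peaks, 38.5% (37.9 to 39.2). At proximal promoters, defined as within 1000 bp of any annotated transcript start, 28.1% of 13203 RXR peaks but 55.9% of 6612 Nur77 peaks (54.7 to 57.1) were shared. With the 22651 strongest peaks of each list, 32.3% of RXR promoter peaks (31.4 to 33.3) were shared. For Nur77 it was 46.1% of 6612 promoter peaks (44.9 to 47.3), below 50%. Nearly equal numbers of promoter peaks were shared in both full lists, 3709 of RXR and 3695 of Nur77. With the 22651 strongest they were 3023 of 9349 RXR and 3047 of 6612 Nur77 promoter peaks. The higher Nur77 percentage at promoters therefore comes from its fewer promoter peaks. Outside promoters the factors were closer: 48.0% of RXR and 44.3% of Nur77 peaks that held a tract were shared, and 16.2% and 19.9% of those without a tract. All intervals here are exact (Clopper-Pearson), cover counting error only and treat peaks as independent, which neighbouring peaks are not.

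The libraries differed in depth. The number of reads is not given in the lists, but the fold value and the −log10 p of a peak together fix the number of fragments at its summit and the background behind it. The background came to 7.09 fragments per kb for RXR and 4.98 for Nur77, a ratio of 1.42. The smallest summit held 6 RXR or 5 Nur77 fragments, and 33.8% of RXR and 54.3% of Nur77 peaks had 10 fragments or fewer. A site called for 1 factor only was thus a site where the other gave no peak at this depth, not a site without that factor.

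Shared peaks were the stronger and wider peaks of both lists. The median −log10 p was 12.8 for shared and 9.81 for RXR only peaks of the RXR list, and 11.7 for shared and 9.81 for Nur77 only peaks of the Nur77 list. The median summit held 14 fragments in shared and 11 in RXR only peaks, and 12 in shared and 9 in Nur77 only peaks. Median widths were 129 and 95 bp in the RXR list and 123 and 94 bp in the Nur77 list. The only classes were not made up of weak peaks alone: 47.8% of RXR only and 47.9% of Nur77 only peaks had a −log10 p of at least 10, against 74.5% and 66.7% of shared peaks.

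Sharing fell steeply with rank by −log10 p. Of the 1000 strongest RXR peaks 93.3% were shared, of ranks 5001 to 10000 33.8%, and of ranks 20001 to 30586 15.5%. For Nur77 the shares were 88.1% of the strongest 1000, 39.1% of ranks 5001 to 10000, and 26.6% of ranks 20001 to 22651. Promoter peaks of Nur77 fell too, from 90.8% of those in the strongest 1000, but less far than the other groups. In the lowest rank bin 48.0% of Nur77 promoter peaks were still shared (44.9 to 51.1), against 11.5% of its peaks outside promoters without a tract and 18.7% of RXR promoter peaks in the lowest RXR bin (17.6 to 19.8). That RXR bin reaches further down its list. At ranks 15001 to 20000 of each list the promoter shares were 49.4% for Nur77 and 24.3% for RXR. The RXR list also held more promoter peaks to match.

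**Figure D1:**
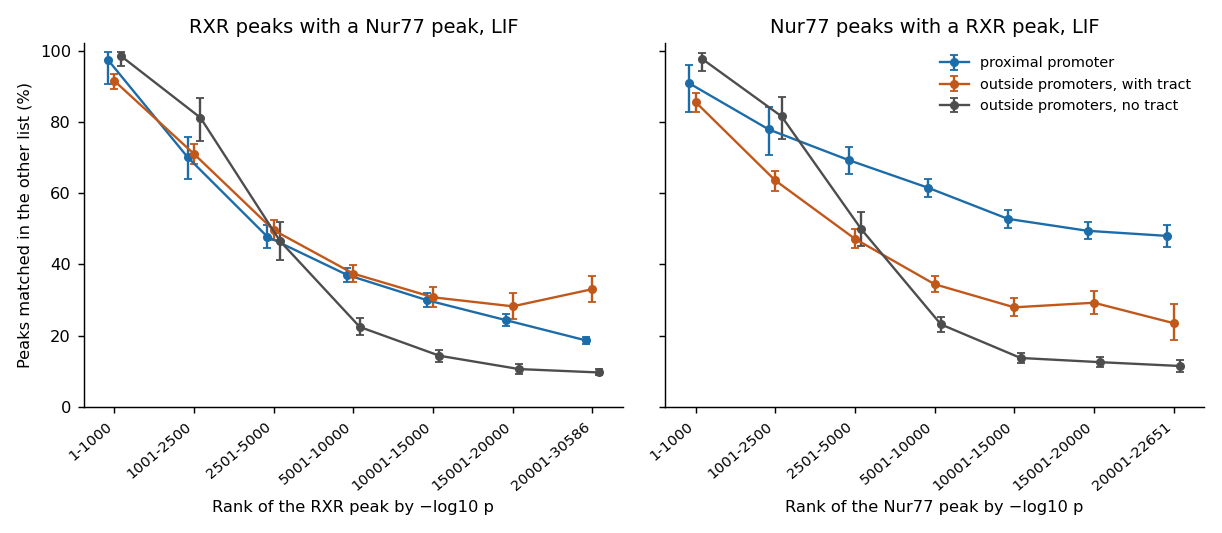
Share of RXR peaks (left) and Nur77 peaks (right) that overlapped a peak of the other factor, in percent, against rank by −log10 p, for promoter peaks and for peaks outside promoters with and without a tract. Bars are 95% exact intervals, and Nur77 promoter peaks end at 48.0% in the weakest bin while the other groups end between 9.70% and 33.1%.

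The plot of shared peaks by rank also shows that, among the 2500 strongest peaks of each list, those outside promoters without a tract were the most often shared. In the RXR list 98.5% of such peaks in the first 1000 were shared, and in the Nur77 list 97.7%. From rank 5001 on they were the least often shared group in both lists.

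With equal numbers of peaks, the 22651 strongest of each list, 33.6% of RXR peaks were shared. Of the 1000 strongest of each list 56.8% of RXR peaks were shared, of the 5000 strongest 42.8%, and of the 10000 strongest 36.4%. Sharing therefore fell as longer lists were compared and leveled off near 33.4% at 20000 peaks each.

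Most RXR only peaks kept a peak-level −log10 p when scaled to the Nur77 depth. When the fragments at each RXR summit were divided by 1.42 and set against the Nur77 background, 87.1% of RXR only peaks (86.6 to 87.5) still had a −log10 p of at least 5, near the weakest peak of either list. For shared peaks the share was 95.1%. It was 86.8% for RXR only peaks at promoters and 83.2% for those outside promoters without a tract. This scaled each summit and did not thin the reads. The RXR summits had already passed the RXR call, and no counting noise was added. How many would be called at the Nur77 depth, and the part of depth in the RXR only class, was therefore not tested.

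At shared sites the RXR summit held more fragments than its Nur77 partner, but by less than the background ratio. The median ratio of RXR to Nur77 fragments over matched peaks was 1.18 (1.17 to 1.19). It was 1.2 at promoters (1.2 to 1.22) and 1.15 in tracts outside promoters (1.13 to 1.18). The Nur77 summit was the higher of the pair in 20.5% of promoter pairs and 31.5% of tract pairs.

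The peaks of both factors lay almost on top of each other at shared sites. The median overlap was 93 bp, or 96.5% of the shorter peak, and the summits were a median of 26 bp apart (25 to 27). They lay within 50 bp in 70.3% of pairs and over 100 bp apart in 12.1%, and 141 pairs had the same summit base. Summits were closest in tracts, at a median of 16 bp, and farther apart at promoters, at 41 bp (39 to 43). Only 79 pairs shared under 10 bp, and 91.4% shared at least 50% of the shorter peak.

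Over the full lists, shared promoter peaks were the most tightly placed relative to the transcript start. The median distance of the summit from the nearest start was 103 bp for shared RXR peaks, 136 bp for RXR only peaks and 200 bp for Nur77 only peaks. Summits within 100 bp of a start made up 49.2%, 42.0% and 32.6% of these classes. Summits lay on the downstream side more often than upstream in every class, with medians of +31, +47 and +44 bp. Within 3681 promoter pairs, the Nur77 summit was downstream of the RXR summit in 1795 and upstream in 1844, with a median offset of -1 bp, so neither factor was placed to one side of the other.

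**Figure D2:**
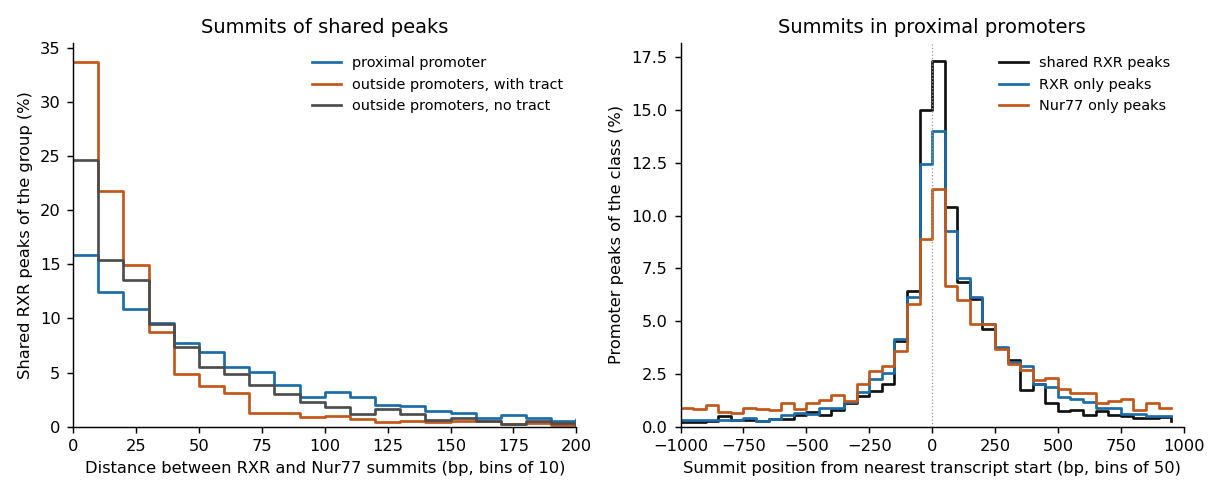
Left, distance between the RXR and Nur77 summits of matched peaks in bp (bins of 10 bp) for promoter pairs and pairs outside promoters with and without a tract. Right, position of promoter summits relative to the nearest transcript start in bp (bins of 50 bp) for shared RXR, RXR only and Nur77 only peaks, of which shared peaks stand highest at the start, with 49.2% within 100 bp.

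The left side of the summit plot shows the narrow peak of tract pairs near 0, and its right side shows how flat the Nur77 only summits were. The order held with the 22651 strongest peaks of each list, where 50.2% of shared RXR, 43.6% of RXR only and 34.6% of Nur77 only promoter summits lay within 100 bp of a start. It did not hold among stronger peaks. With the 5000 strongest of each list the shares were 33.9%, 51.9% and 43.1%, so shared peaks were then the least tightly placed. With the 10000 strongest, shared RXR and RXR only promoter peaks were close, at 48.5% and 49.3%. Nur77 only promoter peaks also more often lay at starts of genes that do not code for protein: 14.8% had no protein-coding start in reach (13.5 to 16.2), against 8.26% of RXR only (7.71 to 8.83) and 7.28% of shared RXR peaks. Starts on both strands were in reach of 10.4% of shared RXR, 8.30% of RXR only and 7.27% of Nur77 only promoter peaks.

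Over all peaks, promoters held a smaller share of Nur77 only peaks than of the other classes. Proximal promoters held 42.3% of shared RXR peaks (41.3 to 43.4) and 43.5% of RXR only peaks (42.8 to 44.2), but 20.9% of Nur77 only peaks (20.3 to 21.6). With a −log10 p of at least 10 the shares were 27.1% of shared RXR, 43.0% of RXR only and 22.0% of Nur77 only peaks, so that RXR only peaks then stood apart. Promoter windows covered 5.88% of the assembly. Nur77 only peaks lay instead in gene bodies (39.6%, against 28.2% of RXR only peaks) and between genes (30.2% against 20.8%). In all 3 classes peaks outside promoters were far from a start, at a median of 13169 bp for shared RXR, 11799.5 bp for RXR only and 13233.5 bp for Nur77 only peaks.

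The promoter share moved with rank. Among the 1000 strongest peaks of each list, proximal promoters held 5.79% of RXR only, 9.22% of Nur77 only and 8.80% of shared RXR peaks. Among the 5000 strongest they were 34.2%, 20.7% and 13.1%, with shared RXR peaks lowest, and among the 22651 strongest 42.1%, 23.7% and 39.7%. Promoter peaks were thus peaks of middle and low rank, and the higher promoter share of RXR only peaks was seen from 2500 peaks per list on (16.2% against 10.1%).

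**Figure D3:**
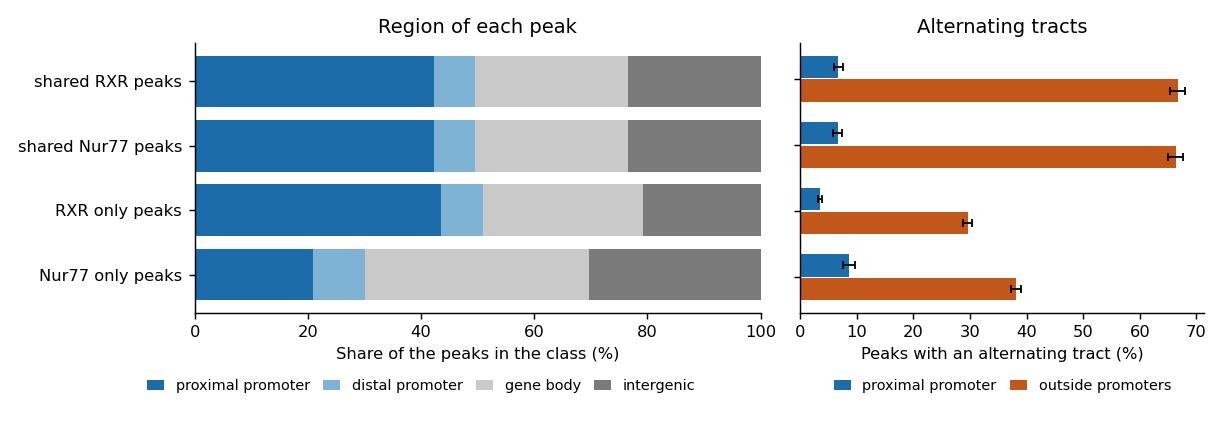
Left, share of peaks in proximal promoters, distal promoters (1000 to 5000 bp upstream), gene bodies and intergenic DNA for the 4 classes, in percent. Right, share of peaks that held a tract at promoters and outside them, with 95% exact intervals; outside promoters 66.7% of shared RXR and 29.6% of RXR only peaks held one.

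As the composition plot shows, tracts separated the classes outside promoters over the full lists. A tract was present in 66.7% of shared RXR and 66.4% of shared Nur77 peaks there, against 29.6% of RXR only and 38.2% of Nur77 only peaks. At promoters tracts were rare, in 6.77%, 3.55% and 8.64% of shared RXR, RXR only and Nur77 only peaks. At least 50% soft-masked (repeat) sequence was found in 75.5% of shared RXR, 33.4% of RXR only and 41.3% of Nur77 only peaks outside promoters. Wider peaks have more room for a tract, shared peaks were wider, and the part of width in these shares was not tested. The order also changed with rank. Outside promoters, the 1000 strongest of each list held a tract in 73.7% of shared RXR, 84.5% of RXR only and 90.9% of Nur77 only peaks. Among the 5000 strongest the shares were 80.5%, 81.1% and 80.5%. Shared RXR peaks stood higher from the 10000 strongest on (79.2%, 65.1% and 62.2%).

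The strongest shared peaks lay in mitochondrial DNA and repeats. At promoters, the first by rank was in the mitochondrial genome near the start of mt-Nd1, a subunit gene of respiratory complex I, at chrM:1921-2096, inside the ribosomal RNA gene mt-Rnr2, with a −log10 p of 106 for RXR and 151 for Nur77. The peaks at chrM:11058-11262, in a coding exon of mt-Nd4 with the start of mt-Nd5 also in reach, followed with a Nur77 value of 121. All 8 RXR and all 8 Nur77 peaks of the mitochondrial genome were shared. The others of the first 5 were at Gm10800 (chr2:98666441-98667321, 85.1 and 87.0), in an intron of Sfi1 and Drg1 (chr11:3192973-3193535, 82.7 and 85.0) and in an intron of Setd2 (chr9:110616452-110616633, 80.8 and 71.8), and at all 5 the summits of both factors were at most 8 bp apart. Outside promoters the leading shared peaks included those in an intron of Cntnap4 and in intergenic DNA of chromosome 15, the latter with 111 RXR and 107 Nur77 fragments at summits 2 bp apart. All of these also overlapped a peak of FGFR1 in LIF and of RXR and Nur77 in NCs. No control library was named against which such peaks could be read.

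The strongest peaks of 1 factor only were mostly tracts. Among the 3 strongest RXR only peaks outside promoters, those in introns of Kif26b (−log10 p 74.6) and Cntn1 (56.1) held a tract and overlapped a Nur77 peak in NCs. The 3 strongest Nur77 only peaks outside promoters, in intergenic DNA of chromosome 12 (chr12:63848383-63848518, 54.8) and in introns of Galnt13 and Tox (51.0 each), held tracts and overlapped Nur77 peaks in NCs as well. The 5 leading Nur77 only promoter peaks, at Cadm2, Rrad, Tchp, Pot1b and Atad5, had a −log10 p of 27.5 to 54.8 and all held a tract. The 5 leading RXR only promoter peaks, at Gm10800, Tmem8b, Serpind1, Ppp2r5a and Iscu/Sart3, ranged from 25.3 to 39.1, and those at Tmem8b and Iscu/Sart3 held a tract. All 5 of these RXR only peaks overlapped a Nur77 peak in NCs, and the RXR only peak at Gm10800 lay beside the shared peak of the same gene.

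The Nur77 only window of chromosome 12 printed above ends in such a tract, of G alternating with T or C. It does not stand for all Nur77 only peaks outside promoters, of which 38.2% held a tract, nor does the tract-free shared window of chromosome 15 for shared peaks, of which 66.7% held one.

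The genes with a promoter peak were compared over 21951 protein-coding genes. RXR had a promoter peak at 9329 (42.5%) and Nur77 at 5597 (25.5%). An overlapping pair of peaks stood at 3465 genes (15.8%), called shared genes. RXR alone bound 4771 (21.7%), Nur77 alone bound 1040 (4.74%), and 1096 (4.99%) held separate peaks of both that did not overlap. These counts depend on list length and strength: with equal numbers of peaks Nur77 alone bound 1702 genes, and with a −log10 p of at least 10 the shared genes were 1271. Of the genes with a Nur77 promoter peak 81.4% also had an RXR promoter peak, and of those with an RXR peak 48.8% had a Nur77 peak. With the 22651 strongest peaks of each list RXR still bound 33.8% of genes, and 69.5% of Nur77 genes had an RXR peak. The lists below are read against these shares, without a test, and the values of a gene are those of the strongest peak of each factor in its promoter. Summit positions in bp are from the nearest annotated transcript start, which may be an internal start or that of another gene.

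Among 27 pluripotency regulators, 12 had an RXR and 8 a Nur77 promoter peak (44.4% and 29.6%), near the shares of all genes. The 4 shared genes were Sox2, Tfcp2l1, Suz12 and Smad1. At Tfcp2l1, which encodes a transcription factor of the naive pluripotent state downstream of LIF, RXR (chr1:118627967-118628128) had a −log10 p of 20.9 with 23 fragments and Nur77 (chr1:118627973-118628076) 14.8 with 15, at +133 and +87 bp from the start, and both overlapped an FGFR1 peak. At Sox2, a core factor of pluripotency, the strongest RXR peak (10.2, +114 bp) and the strongest Nur77 peak (11.2, +551 bp) stood apart, and the shared call came from a pair with at least 1 weaker peak. Nanog, Nr0b1 and Ctcf had a Nur77 peak only. That of Nanog, a homeodomain factor of the pluripotent state, lay at the far edge of the window (chr6:122708549-122708655, −log10 p 16.1, 18 fragments, summit at +1034 bp). RXR alone was found at Klf2, Klf5, Zfp42, Lin28a, Utf1, Mycn and Zfx, with −log10 p values of 6.79 to 13.0. Stat3, the transducer of the LIF signal, had separate RXR (6.68) and Nur77 (10.0) peaks, and 12 regulators, Pou5f1, Klf4 and Esrrb among them, had neither.

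Retinoid genes had RXR peaks about as often as all genes, and few had a Nur77 peak. Over the full peak lists, all genes and every gene list had more RXR than Nur77 genes. Of 20 genes, 9 had an RXR peak (45%, near the 42.5% of all genes) and 2 a Nur77 peak (10.0%, against 25.5%), and both of the latter were shared. These were Rxrg, an RXR gene itself, with 10.6 for RXR and 11.6 for Nur77 on either side of the start (+21 and -21 bp), and Crabp1, an RA-binding protein of the cytoplasm, with 12.2 and 8.63 at +137 and +135 bp. The 7 genes with RXR alone were the receptor genes Rara (8.30) and Rarb (9.42), the RA-synthesizing Rdh10 (9.95), Aldh1a2 (13.4) and Aldh1a3 (9.95), and the RA-degrading Cyp26a1 (10.6) and Cyp26c1 (12.3). No retinoid gene had Nur77 alone, against 4.74% of all genes (1040, or 1702 with equal numbers of peaks). In a list of 20 genes this is near that share, and over the full lists none of 20 coregulators had Nur77 alone either. With equal numbers of peaks, 8 retinoid genes had an RXR and 2 a Nur77 peak. The Aldh1a3 peak (chr7:66427219-66427386) held a DR0 at its summit, shown above. Rxra, Rxrb and Rarg had no peak of either factor.

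No gene of the NR4A family and the immediate early group was shared. Of 20 such genes, 10 had an RXR peak (50%, against 42.5% of all genes) and 4 a Nur77 peak (20%, against 25.5%). Of these, 1 gene, Nr4a3, had separate peaks of both. Nr4a1, the gene of Nur77 itself, had Nur77 alone (chr15:101254333-101254419, −log10 p 8.14, 11 fragments, +120 bp). Nr4a2, which encodes Nurr1, had RXR alone (chr2:57124010-57124136, 13.2, 12 fragments, -81 bp). Dusp1, a phosphatase that turns off MAP kinases, had the strongest peak of the group, RXR alone at chr17:26508017-26508186 (21.4, 26 fragments). Its summit was at -363 bp from the nearest annotated transcript start, and this sign does not place the peak upstream of Dusp1. Jund (11.1) and Ier2 (6.24) had Nur77 alone, and Fosl2, Junb, Egr2, Egr3, Atf3 and Btg2 were among those with RXR alone. The count of 0 of 20 stands beside 15.8% shared in all genes. With equal numbers of peaks it was 0 again, beside 13.2% of all genes. RXR then had 6 genes of the list and Nur77 4, beside 33.8% and 25.5% of all genes.

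Other nuclear receptors had shares near or below those of all genes, and coregulators had more RXR peaks. Of 35 receptors, 14 had an RXR peak (40.0%, against 42.5% of all genes) and 7 a Nur77 peak (20%, against 25.5%). The 4 shared receptor genes were Nr1h3, Nr1d2, Nr2f6 and Nr3c2. At Nr1h3, which encodes LXRα, an RXR partner, the peaks were 11.4 for RXR and 10.4 for Nur77 at -56 and -62 bp. Ppara (10.3) and Ppard (10.6) had RXR alone, and Pparg had separate peaks of RXR at -513 bp and Nur77 at +357 bp. Of 20 coregulators, 15 had an RXR peak (75%, against 42.5% of all genes) and 6 a Nur77 peak (30%). The coactivators Ncoa1, Ncoa3, Med1 and Carm1 were shared. Ncoa2 (14.6), Ep300 (10.7) and Crebbp (8.0) had RXR alone, and Ncor1, a corepressor, had separate peaks. With equal numbers of peaks 11 coregulators had RXR and 6 Nur77.

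Of 18 known LXR and PPAR target genes, 1 was shared (5.56%, against 15.8% of all genes). In so short a list this difference was not tested. The shared gene was Pdk4, a pyruvate dehydrogenase kinase, with 12 for RXR and 11.4 for Nur77 at +4 and +80 bp. RXR alone stood at Abca1 (9.8), a cholesterol exporter, and at Srebf1 (8.61). Apoe (8.72) and Fasn (6.18) had Nur77 alone. The RXR and Nur77 shares of this list, 50% and 27.8%, were close to those of all genes.

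The Hox genes, which pattern the body axis and respond to RA, held peaks of both factors in these undifferentiated cells. Of 39 genes, 16 had an RXR peak (41.0%) and 9 a Nur77 peak (23.1%), as in all genes. The shared genes were Hoxd1, Hoxd9, Hoxc12, Hoxc10 and Hoxc5, of which the last 2 counted the same pair of peaks. The Hoxd1 pair was the strongest (RXR chr2:74762914-74763395, 15.2 at +72 bp, and Nur77 12.8 at +96 bp). Hoxb4, Hoxc6 and Hoxc8 had Nur77 alone.

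Genes of basic cell functions had RXR and Nur77 peaks more often than the 42.5% and 25.5% of all genes. Of 98 respiratory chain genes, 61.2% had an RXR and 35.7% a Nur77 peak, and 24 were shared, against 15.8% of all genes. At Cox5a, a cytochrome oxidase subunit gene, the summits lay at -2 and -6 bp of the start with 24 RXR and 14 Nur77 fragments. At Sdha, of respiratory complex II, they lay at -46 and -53 bp with 17 and 12 fragments. Ndufc2 and Cox4i1 were stronger for Nur77 (22.8 against 16.8, and 19.9 against 13.7). Of 76 ribosomal protein genes, 55.3% had an RXR and 31.6% a Nur77 peak and 16 were shared, among them Rps20 (18.4 and 15.5) and Rpl9 (18 and 10.6). Rpl26 had Nur77 alone with a −log10 p of 16.3, at -164 bp. Of 40 proteasome genes, 62.5% had an RXR peak and 30% a Nur77 peak and 5 were shared, among them Psmb2 (chr4:126677577-126677731, 19.6 and 11.4), whose CRE is printed above. The 365 zinc finger genes of the Zfp series had 48.5% and 29.3% with 63 shared.

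DNA words at promoter summits were counted in 100-bp windows on both strands, beside windows 400 bp to either side of the same summits. The CRE TGACGTCA was more frequent in shared peaks. It was in 1.62% of shared RXR windows (1.24 to 2.08, 60 of 3709 peaks), against 0.706% of RXR only windows (0.547 to 0.895, 67 of 9494 peaks), with 0.310% and 0.158% in their flanks. In the Nur77 list it was in 1.68% of shared windows (1.29 to 2.15) and 0.720% of Nur77 only windows (0.446 to 1.10), with 0.271% and 0.223% in the flanks. All windows at transcript starts held it in 0.644%. Among peaks with a −log10 p of at least 10 the shares were 2.03% for shared RXR (1.5 to 2.68) and 0.961% for RXR only (0.687 to 1.31), and 2.14% (1.53 to 2.90) and 1.16% (0.618 to 1.97) for shared Nur77 and Nur77 only, so that in the Nur77 list the intervals then met.

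The distance of the CRE from the summit was measured within these windows, without a baseline. A word placed evenly over such a window would also lie near the summit in many peaks. Over 57 sites in shared RXR promoter peaks, chromosome 18 left out, the median distance from the summit was 19 bp, with 64.9% within 25 bp, and over 66 sites in RXR only peaks it was 16 bp, with 66.7%. For the NRF1 word CGCATGCG, counted below, 55.8% and 61.3% of sites in these classes lay within 25 bp. Whether the CRE was centered on summits was not tested. At Prmt9, Psmb2 and Pak1, whose sites are printed above, the RXR −log10 p was 21.8, 19.6 and 18.7, the Nur77 value 13.5, 11.4 and 12.7, and the summits of both factors were 3, 6 and 6 bp apart. Nur77 alone lay on the CRE of Rpl26 (chr11:68901421-68901450).

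**Figure D4:**
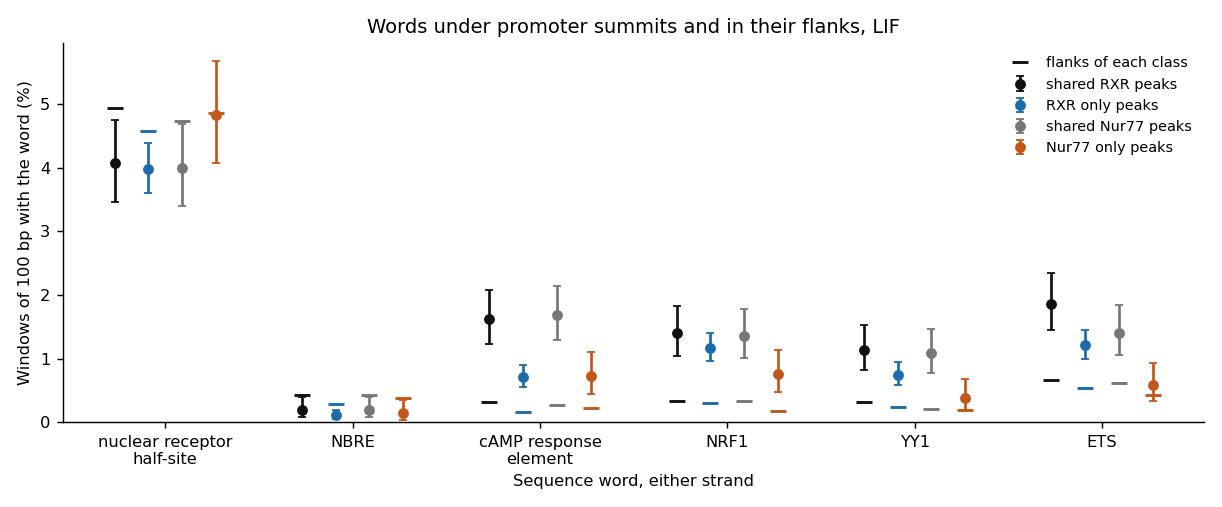
Share of promoter peaks whose 100-bp summit window held each of 6 words, in percent, for the 4 classes, with 95% exact intervals and ticks for the flanking windows 400 bp away. For the CRE, 1.62% of shared RXR and 0.706% of RXR only windows held the word.

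Other promoter words were above their flanks in several classes, as the plot of promoter words shows. NRF1's CGCATGCG was in 1.4% of shared RXR, 1.17% of RXR only and 0.754% of Nur77 only windows, with flanks of 0.337%, 0.305% and 0.171%. YY1's AAGATGGCG was in 1.13%, 0.748% and 0.377%, and the ETS word CCGGAAGT in 1.86%, 1.21% and 0.583%. All start windows held these words in 0.602%, 1.08% and 1.80%, so the shared shares of YY1's and the ETS word were near those of any start. Both CGCATGCG and the E-box CACGTG alternate purines and pyrimidines, so they can lie within a tract. Promoter peaks with a tract were kept in these counts, and their part in the shares was not tested. The E-box was in 5.45% of shared RXR (4.74 to 6.23), 4.20% of RXR only (3.81 to 4.63) and 5.18% of Nur77 only windows (4.40 to 6.04). Its flanks were 2.26%, 2.04% and 1.59%. The intervals of shared RXR and RXR only did not meet. With a −log10 p of at least 10 they did, at 5.92% (5.0 to 6.95) and 5.02% (4.38 to 5.73). GGGGCGGGG, the SP1 word, was above its flanks in shared RXR (3.40% against 2.62%) and RXR only windows (3.94% against 2.99%). In Nur77 only windows it was near them (2.26% against 2.54%). All start windows held it in 3.27%.

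The receptors' own words were not more frequent at promoter summits. AGGTCA was in 4.07% of shared RXR, 3.98% of RXR only and 4.83% of Nur77 only windows, against flanks of 4.93%, 4.58% and 4.87% and 5.0% of all start windows. The NBRE AAAGGTCA, which holds AGGTCA, was at 7 shared RXR, 10 RXR only and 4 Nur77 only promoter summits, or 0.189%, 0.105% and 0.137%, each below its flank (0.431%, 0.284% and 0.377%). Direct repeats with 0 to 5 bases between, sought with AGGTCA and with its variants GGGTCA and also AGTTCA or GGTTCA, were rarer still, and each repeat also overlaps a core word or variant. DR1, the spacing known for RXR with PPAR, was at 7 RXR only promoter summits (0.0737%, 0.0296 to 0.152), against 0.0369% of flanks and 0.0799% of all start windows, and at 1 shared RXR summit. DR5, known for RXR with RAR, was at 3 RXR only and 1 Nur77 only promoter summits. The printed sites of Smyd5, Isca1, Slc6a16 and Aldh1a3 are therefore single cases, and a word in these windows is a match of letters.

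Outside promoters and tracts, AGGTCA ran the other way in the peaks of 1 factor. It was in 7.05% of RXR only windows (6.52 to 7.61), with 5.88% in flanks, and in 7.67% of Nur77 only windows (7.05 to 8.33), with 6.06% in flanks. Shared RXR windows held it in 4.52% (3.58 to 5.62), with 5.62% in flanks, and windows tiled over the genome in 5.55%. The NBRE took no part in this, with 0.161% of RXR only and 0.264% of Nur77 only windows against flanks of 0.478% and 0.499%. DR0 was at 14, DR1 at 6 and DR5 at 7 of the 8676 RXR only windows there. These are 0.161%, 0.0692% and 0.0807%, with 0.138%, 0.0346% and 0.0231% in flanks. DR4 was likewise above its flanks, DR2 and DR3 were below theirs, and all these counts are small. Base composition differs between summits and flanks and between classes, with a median of 61% G or C in all RXR only and 55% in all Nur77 only peaks, and its part was not tested.

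Peaks of 1 factor seldom had the other nearby. Of RXR only peaks 14.0% lay within 1000 bp of a Nur77 peak, 25.2% at promoters and 5.39% outside. Of Nur77 only peaks 12.1% lay within 1000 bp of an RXR peak, 38.7% at promoters (36.9 to 40.5) and 5.01% outside. Within 100 bp the shares were 3.51% and 3.82%. Outside promoters a peak of 1 factor thus rarely had the other within 1000 bp. The promoter shares stand beside the 42.5% of protein-coding genes with an RXR and 25.5% with a Nur77 promoter peak. Those are shares of genes and not of peaks. The 38.7% and 25.2% were not above them and are not read as a trait of these peaks.

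Shared sites were also the sites where other libraries had peaks. FGFR1 in LIF overlapped 9.65% of RXR only and 8.70% of Nur77 only peaks, and 44.9% of shared Nur77 peaks. RXR peaks of NCs overlapped 51.3% of shared RXR and 15.2% of RXR only peaks, and Nur77 peaks of NCs overlapped 61.8% of shared Nur77 and 19.1% of Nur77 only peaks. Nur77 peaks of NCs lay on 19.4% of RXR only peaks, and RXR peaks of NCs on 10.1% of Nur77 only peaks. The lists of NCs differ in length, so shares in different lists are given side by side and not ranked.

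Since shared peaks were stronger, the same shares were set within bins of rank, separately for promoters and for peaks outside promoters with and without a tract. In all 19 such groups with at least 20 peaks in each class, the overlap with FGFR1 in LIF was higher in shared than in only peaks, with intervals that did not meet, for RXR and for Nur77 peaks. The same held in 19 of 19 groups for RXR, Nur77 and H3.3 in NCs and for the first FGFR1 library of NCs. For the second FGFR1 library of NCs it was higher in 16 of 19, with intervals apart in 9 groups of RXR and 10 of Nur77 peaks.

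**Figure D5:**
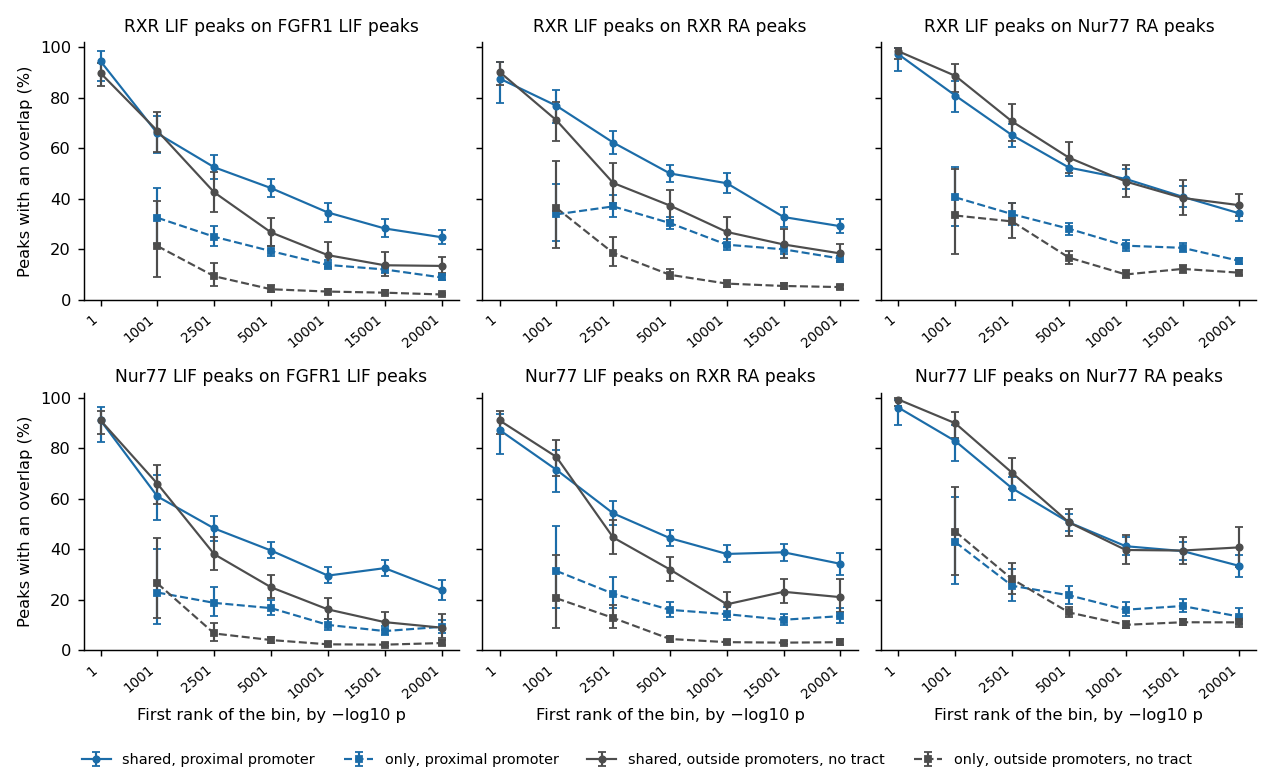
Share of RXR peaks and Nur77 peaks of LIF cells that overlapped a peak of FGFR1 in LIF, RXR in NCs or Nur77 in NCs, in percent, against rank by −log10 p, for shared and only peaks at promoters and outside promoters without a tract; groups under 20 peaks are not drawn. Bars are 95% exact intervals, and at ranks 5001 to 10000 44.2% of shared and 19.2% of RXR only promoter peaks overlapped FGFR1 in LIF.

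The plot of overlap by rank shows these groups. At ranks 5001 to 10000 of the RXR list, promoter peaks overlapped RXR peaks of NCs in 50% of 810 shared (46.5 to 53.5) and 30.3% of 1375 RXR only peaks (27.9 to 32.8). In the same bin outside promoters without a tract, the shares were 37.3% of 263 shared and 9.8% of 908 RXR only peaks. For Nur77 at these ranks, promoter peaks overlapped Nur77 peaks of NCs in 50.7% of 939 shared (47.4 to 53.9) and 21.8% of 588 Nur77 only peaks (18.5 to 25.3), and peaks outside promoters without a tract in 50.7% of 369 and 15.0% of 1223. The difference between the classes was thus also present among peaks of like rank. Shared peaks were wider in each list, and the part of width in these shares was not tested.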

How the data were processed

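The ChIP-seq libraries were 1 for RXR and 1 for Nur77 in LIF ESCs, read beside the other 6 of the 8 libraries. The authors aligned the reads with Bowtie 1.0 and called peaks with MACS2, in mm10, per library. Reads that aligned to more than 1 place were discarded at alignment, so signal in repeats rests on the reads that placed uniquely. The deposited lists give each peak's summit offset, its fold ratio over local background, and −log10 p and −log10 q values. They hold no read totals, so the depth was obtained by solving the fragments at each summit from fold and −log10 p (tolerance 0.002).

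Peaks were matched by at least 1 bp. A proximal promoter peak overlapped by at least 20 bp a window of 1000 bp either side of any of 141767 GENCODE M21 transcript starts, and a distal promoter peak lay 1000 to 5000 bp upstream. Each shared RXR peak was paired with the Nur77 peak of nearest summit. A tract is at least 20 bp of strictly alternating purines and pyrimidines. Words were sought on both strands in 100-bp windows at summits and 400 bp to either side. Peaks were named by rank by −log10 p, the 5 strongest at promoters and the 3 strongest outside in each class, with the members of the gene lists. The members and lists were chosen with earlier results of these data known. Shares carry 95% exact (Clopper-Pearson) intervals, which cover counting error only, since fragments are not independent molecules, and medians carry intervals from order statistics. The matching, the fragment estimate and the intervals were tested on simulated data. Python 3.11.15, numpy 2.4.6, pandas 2.3.3, scipy 1.17.1 and matplotlib 3.10.9 were used. Alternatives were equal numbers of peaks, a −log10 p of at least 10, peaks without tracts, 50% overlap of the shorter peak, summits within 100 bp, promoters of 500 bp and standard nuclear chromosomes alone. Some of the named peaks and list genes are not reported here.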

Additional observations from a re-analysis of the deposited data

How the results depend on the processing

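The main values were 28.7% of RXR and 38.5% of Nur77 peaks shared, promoter shares of 42.3% (shared RXR), 43.5% (RXR only) and 20.9% (Nur77 only), 3465 shared, 4771 RXR only and 1040 Nur77 only genes, and a median summit distance of 26 bp. In all 7 alternatives the promoter share of Nur77 only peaks stayed the lowest of the 3. With equal numbers of peaks the shared percentages were 33.6% and 33.7%, the promoter shares 39.7%, 42.1% and 23.7%, Nur77 only genes 1702 and the distance 24 bp, so the higher shared percentage of Nur77 peaks came with its shorter list. With a −log10 p of at least 10 the promoter shares were 27.1%, 43.0% and 22.0%, shared genes 1271 and the distance 18 bp. Without tract peaks the values were 22.1% and 34.5% shared, promoter shares of 68.0%, 51.2% and 28.0%, and 37 bp, so that shared peaks then had the highest promoter share. With overlaps of at least 50% of the shorter peak they were 26.2% and 35.4%, then 39.96%, 44.3% and 23.2%, and 23 bp. With summits within 100 bp they were 25.3% and 34.2%, then 39.1%, 44.5% and 24.05%, and 22 bp. Promoters of 500 bp gave promoter shares of 39.05%, 38.8% and 16.8%, and change neither the matching nor the summits. The other values moved by less than their counting interval or, for counts, by less than 1.5 times, and nuclear chromosomes alone changed none of the values beyond that. No paired analysis was possible because each factor had 1 library. The limits are the single libraries, the absence of a named control library and the depth, at which 54.3% of Nur77 peaks rested on 10 fragments or fewer.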
